A study of Mus musculus with 35 samples.

Results

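Border-associated macrophages were taken from single-nucleus RNA sequencing of mouse hippocampus as barcodes chosen by their own counts: they carried RNA of at least 2 of the 4 genes Mrc1, F13a1, Cd163 and Stab1. A barcode is the tag shared by all RNA from 1 droplet, and a unique molecular identifier (UMI) marks each RNA molecule counted. The rule asked for 500 or more detected genes, for 3 or more UMIs of these 4 genes together, and for 0.1% or more of the barcode's UMIs to come from them. It also asked for at least 1 UMI of the leukocyte genes Ptprc, Csf1r or Dock8, and for no more than 3 of the neuronal genes Snap25 and Rbfox3. The rule held for 288 of 144991 barcodes, of which 142840 had 500 or more genes. Nuclei came from frozen hippocampus of C57BL/6 mice aged 9 months, with 3 WT, 3 PS19, 4 CLEAR and 4 CLEAR_PS19 libraries (10x Genomics chemistry), each group holding 1 female and otherwise males. The PS19 line expresses mutant human tau from a Prnp (prion protein) promoter, which is active in neurons but not in them alone. CLEAR mice, as far as the design is known, have a mutated TFEB site (a CLEAR element) in Atp6v1h, a gene of the V-ATPase, the pump that acidifies lysosomes. TFEB is a transcription factor of lysosomal genes, and CLEAR_PS19 mice combine the mutation with the tau transgene. Bulk RNA-seq of hippocampus came from WT and PS19 mice of the same strain, with 6 libraries of each at 4 months and with 5 WT and 4 PS19 libraries at 9 months. The labels do not say that each library came from a separate animal, so p-values measure the spread between these libraries, which may be technical.

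Border-associated macrophages are the resident macrophages of the brain's surfaces: the perivascular spaces, the leptomeninges and the choroid plexus. They share the growth factor receptor Csf1r with microglia, the macrophages of the brain tissue itself. They are known for scavenger and C-type lectin receptors that take up proteins, lipids and iron-bound hemoglobin from blood and cerebrospinal fluid. A subset presents antigen through MHC class II. Whether meninges or choroid plexus stayed on the dissected hippocampus is not given in the sources used here, so nuclei of these places cannot be told apart.

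The 4 genes that defined the nuclei are described here without a test, because the rule used them. Mrc1, the mannose receptor, was found in 98.3% of the 288 nuclei and in 0.445% of 9223 microglia-like nuclei, at median depths of 2224 and 1910 UMIs per nucleus. F13a1, the catalytic subunit of coagulation factor XIII, was found in 96.5% and 0.0867%. Stab1, a scavenger receptor, was found in 88.2% and 18.5%, and Cd163, the receptor of hemoglobin bound to haptoglobin, in 57.3% and 0.0108%. The microglia-like nuclei were chosen to hold at most 1 UMI of these 4 genes together, which limited their shares in advance. All 4 genes were detected in 144 nuclei, 3 in 116 and 2 in 28. The marker UMIs of a nucleus numbered 21 at the median (range 3 to 101). Neurons gave the background: of 42658 neuronal barcodes (10 or more UMIs of Snap25 and Rbfox3 and none of Ptprc, Csf1r or Dock8), with a median of 12683 UMIs, 6.49% carried F13a1 and 0.647% Mrc1, but 0.0469% (20 barcodes) met the sum and number criteria of the rule. Just inside the rule lay 5 nuclei with exactly 3 marker UMIs and 5 with 4. Just outside it lay 5 barcodes with 2 marker UMIs, 71 with a single kind of marker, 6 under the 0.1%, 9 without leukocyte genes, 15 with neuronal RNA (median 10730 UMIs) and 2 with too few genes.

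Mrc1 lies at chr2:14229392-14332057 on the plus strand, F13a1 at chr13:36867178-37050244 on the minus strand, Cd163 at chr6:124304656-124330527 on the plus strand and Stab1 at chr14:31139013-31168641 on the minus strand (GRCm38). Their promoters are of interest because PU.1 and MAF factors are textbook regulators of macrophage genes. The 250 bases before each RefSeq start (GRCm38.p6) were searched on both strands for a PU.1-type site (GAGGAAGT, or ACTTCCTC in reverse) and for a short MAF site (TGCTGA, or TCAGCA in reverse). Neither motif contains the other. Among the 4 markers the Stab1 promoter alone held a match, a short MAF site that begins 43 bases before the start. The Mrc1 promoter is shown beside it because macrophages held a larger share of its RNA than of the other 3. Both are given 5′ to 3′ on the gene's strand, with the match in capitals; Mrc1 is chr2:14229164-14229413 (plus) and Stab1 chr14:31168642-31168891 (minus).
Mrc1: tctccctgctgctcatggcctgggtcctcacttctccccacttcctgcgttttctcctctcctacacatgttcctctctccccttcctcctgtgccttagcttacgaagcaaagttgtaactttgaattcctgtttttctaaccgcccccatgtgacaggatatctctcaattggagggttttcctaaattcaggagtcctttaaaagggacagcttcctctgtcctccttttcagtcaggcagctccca
Stab1: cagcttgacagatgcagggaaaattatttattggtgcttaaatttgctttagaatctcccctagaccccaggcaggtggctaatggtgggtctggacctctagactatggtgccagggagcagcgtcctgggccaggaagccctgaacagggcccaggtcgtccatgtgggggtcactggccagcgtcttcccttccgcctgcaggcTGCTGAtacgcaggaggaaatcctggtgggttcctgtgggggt
Of 24 macrophage genes (the 4 markers and a list of 20 others), 19 had a promoter in the table. The short MAF site was found in 6 of these (31.6%: Dab2, Ednrb, Fcna, Folr2, Ms4a4a and Stab1), beside 18.02% of all genes, and the PU.1-type site in 1 (Pf4), beside 2.79% of all genes. A match is a run of letters and not a bound site.

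Library totals, in units of 1000000 UMIs, ranged from 45.1 to 96.0, and a library held 7 to 72 macrophage nuclei. Their summed UMIs ranged from 15234 to 222732. PS19 replicate 2 stood apart with 72 of the 288 nuclei. Libraries fell into sets by the correlation of their deviations from the mean over all 14 libraries. It was 0.562 to 0.936 among CLEAR replicates 1 and 2 and CLEAR_PS19 replicates 1 and 2, called the 4 similar libraries here, and -0.652 to 0.0904 between these and the others. Among the 4 female libraries (WT and PS19 replicate 3, CLEAR and CLEAR_PS19 replicate 4) it was 0.562 to 0.790, and -0.652 to 0.0893 with the others. PS19 replicates 1 and 2 with CLEAR_PS19 replicate 3 gave 0.489 to 0.674, and WT replicate 2 with CLEAR replicate 3 gave 0.762. Library pairs shared 10 to 70 barcodes, none of them macrophages in both. No doublet caller was run. Instead, 28 of the 288 nuclei were set aside in an alternative because the markers of another cell type gave 5 or more UMIs and more than the macrophage markers did, 20 of them with oligodendrocyte RNA. Gene tests used the 12 libraries with 10 or more macrophage nuclei, which leaves out WT replicate 1 (7 nuclei) and CLEAR_PS19 replicate 2 (8 nuclei).

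Genes that the rule did not use were read next. Their lists were chosen with earlier results of these data known, so they are no independent check of the label. Levels below are counts scaled to a total of 1000000 (CPM) over the summed nuclei of a library, as mean ± SD over 12 libraries, set beside the microglia-like nuclei of the same libraries. Since the rule drew the line between these classes, they are a description. All 20 further border macrophage genes had a higher mean in the macrophages, and 12 were higher in every library. Among all 9495 genes with enough UMIs, 46.9% had a higher mean and 2.55% were higher in every library. Dab2, an endocytic adaptor, stood at 2373 ± 584 CPM against 17.6 ± 6.30 in microglia. Clec10a, a C-type lectin, stood at 127 ± 86.8 CPM with no UMI in microglia, at least 850.0-fold higher against a floor of 3 UMIs over all microglia. Lyve1, the hyaluronan receptor, stood at 94.5 ± 63.3 against 0.0484 CPM, where microglia held 2 UMIs (ratio of the summed nuclei 789, 95% counting interval 209 to 6661). Ms4a7 stood at 530 ± 157 against 14.8 ± 24.4 CPM, and Colec12, a scavenger receptor of the collectin type, at 975 ± 503 against 66.4 ± 91.0. Maf, the transcription factor of resident macrophages, was the least different of these at 1136 ± 177 against 435 ± 88.3 CPM. Among the 25 genes with the highest ratio were also Vsig4, a complement receptor (248.8 ± 77.0 against 0.154 CPM), Cbr2 (148 ± 72.1 against 0.146), Cd38, an NAD-consuming ectoenzyme (268 ± 171 against 0.733), Vcam1, an adhesion molecule (222 ± 155 against 3.16), Msr1, a scavenger receptor (202 ± 70.2 against 3.83), and Ifi202b, an interferon-inducible gene of a family with near-identical copies (400 ± 144 against 0.144). The plot of identity genes by library shows these gaps side by side.

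**Figure D1:**
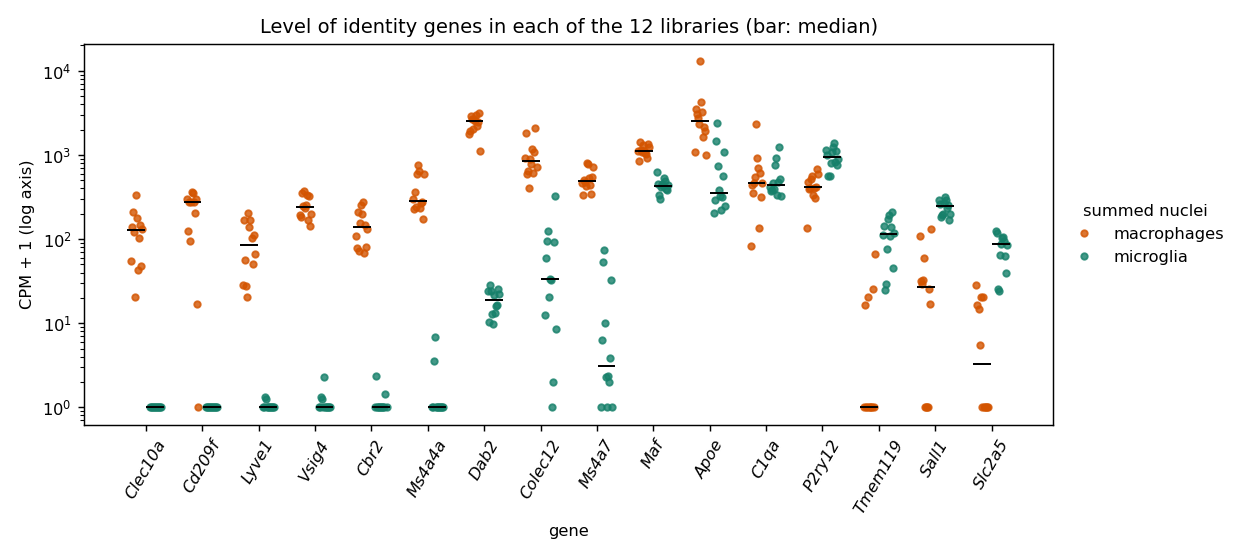
Level of 16 identity genes in summed macrophage nuclei (orange) and summed microglia-like nuclei (green), 1 point per library (n = 12), on a log axis of CPM + 1, with bars at the median. Clec10a to Maf lie higher in macrophages, other than Cd209f in a library where both classes are at 0, and P2ry12 to Slc2a5 lower, while C1qa overlaps between the classes.

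Genes of microglia in their resting state were low in the macrophages. None of the 15 homeostatic genes had a higher mean, and 13 were lower in all 12 libraries, beside 4.71% of all genes. Of these genes 4 had chosen the microglia-like nuclei, which fixed part of the count; all 11 others had a lower mean, 9 of them in all 12 libraries. Tmem119 stood at 10.4 ± 19.6 CPM against 113 ± 61.6, and Sall1, a transcription factor of microglial identity, at 35.7 ± 43.4 against 237 ± 49.2. P2ry12, a purine receptor that defines microglia, was lower, at 435 ± 144 against 942 ± 259 CPM. A P2ry12 UMI was found in 52.8% of the macrophage nuclei, in 73.3% of microglia-like nuclei and in 67.7% of the neuronal barcodes, whose median depth was 12683 UMIs, so no expression is read from that share. P2ry12 and Csf1r were among the genes that chose the microglia-like nuclei.

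The gene groups of macrophage function divided as follows. Of the 11 scavenger and endocytic receptors with enough UMIs, 10 had the higher mean in macrophages and 7 were higher in every library, a count that includes Mrc1, Cd163 and Stab1 of the rule; the exception was Lrp1, a lipoprotein receptor, at 116 ± 49.4 against 300 ± 22.4 CPM. Marco had no UMI in either class. All 9 genes of complement and coagulation had the higher mean, although C1qa, a part of the first complement component (614 ± 593 against 548 ± 278 CPM), was higher in 6 of 12 libraries and F13a1 of the rule was the only member higher in every library. All 13 interferon response genes had the higher mean, but Ifi207 was the only member higher in every library. Of 11 iron and heme genes 9 had the higher mean, such as the iron exporter Slc40a1 (217 ± 182 against 108 ± 35.6 CPM), and Cd163 of the rule was the only member higher in every library. Of 7 chemokine and cytokine genes 4 had the higher mean and 0 were higher in every library. Of 9 MHC class II genes 6 had the higher mean and 0 were higher in every library, and Cd74, the invariant chain, was at 113 ± 114 against 22.3 ± 33.9 CPM. Lysosomal genes showed no common direction, with 17 of 34 higher and a median log2 ratio of -0.10. Of V-ATPase subunit genes 11 of 18 were higher, with a median of 0.05. Both lists held 1 gene that was lower in every library. Within them, Ctsc and Ctsb, both lysosomal proteases, were higher in every library (646 ± 199 against 181 ± 86.9 and 518 ± 361 against 225 ± 91.4 CPM), as was Atp6v0a1, a membrane subunit of the pump (579 ± 126 against 308 ± 46.8). Ctsd, a further protease, was lower (181 ± 114 against 372 ± 148).

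Genes of disease-associated microglia, a state known from mouse models of neurodegeneration, were split. Of 24 with enough UMIs, 8 had the higher mean in macrophages, beside 46.9% of all genes. In all 12 libraries 3 were higher and 3 lower, beside 2.55% and 4.71% of all genes. Apoe, a lipid carrier, and Lyz2, lysozyme, were higher in all 12 libraries, at 3317 ± 3193 against 683 ± 666 CPM and 482 ± 679 against 36.5 ± 36.7. CLEAR replicate 1 was the highest library of both, at 12969 and 2502 CPM. Cst7 and Gpnmb, 2 of the most typical genes of the state, had no UMI in any of the 288 nuclei, against 12.1 ± 14.6 and 19.98 ± 32.4 CPM in microglia. Measured over the summed nuclei of all libraries this was at least 5.25-fold and 9.51-fold lower. The microglial UMIs came mostly from tau libraries, 408 against 6 for Cst7 and 744 against 6 for Gpnmb. With tau, microglia stood at 27.6 and 50.4 CPM, against a floor of 6.20 CPM in macrophages. Without tau they stood at 1.06 CPM for both genes, too low to show a difference.

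Most markers of other immune cells were at or near 0. The T cell list gave 1 UMI in all 288 nuclei, the B cell list 11 (all of Ebf1) and the monocyte list 17. S100a8, S100a9, Cd3e, Flt3 and Xcr1 were at 0, and the defining gene of infiltrating monocytes, Ccr2, was seen in 3 nuclei (1.04%, beside 1.07% of microglia-like nuclei). These 3 nuclei held 15 Ccr2 UMIs, while 99 microglia-like nuclei held 126. Of the neutrophil list Csf3r alone was found (122 UMIs), and of the dendritic list Cd209a (75 UMIs in 51 nuclei), Zbtb46 (45 UMIs) and Batf3; microglia carried Csf3r as well. Among the lists of 5 markers for each other cell type, the oligodendrocyte list had the highest sum, at 525 to 3047 CPM per library. This was close to its level in microglia (1520 against 1335 CPM over the summed nuclei). Sums of different genes do not rank the amount of foreign RNA by cell type.

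The nuclei varied among themselves in antigen presentation and in lectin receptors. At least 1 UMI of Cd74, H2-Aa, H2-Ab1 or H2-Eb1 was found in 40 of the 288 nuclei, and 3 or more in 16. None of the 16 carried Lyve1, Cd209f, Cd209g or Vsig4, whereas 13.5%, 26.7%, 24.0% and 37.2% of all 288 did. In the neuronal barcodes these shares were 0.0914%, 0.0141%, 0.00703% and 0.129%. Of the list of border macrophage genes, Clec10a and Cbr2 were each found in 12.5% of the 16 (22.9% and 27.1% of all 288). Pf4 was found in 18.75% (15.3%), Colec12 in 12.5% (58.7%), Ms4a7 in 37.5% (68.1%) and Dab2 in 75.0% (94.4%). Cd209a of the dendritic list was found in 12.5% (17.7%), and Cd209b, which is on neither list, in 6.25% (16.3%). Of the rule genes, Mrc1 was found in all 16 (98.3% of all 288) and F13a1 in 87.5% (96.5%). Cd163 was found in 50.0% (57.3%) and Stab1 in 8 of the 16 (50.0%, beside 88.2%). Lyz2 was found in 13 of the 16 (81.2%) and Ccr2 in 2. Ccr2 stood at 413 CPM over the 16 nuclei, beside 19.3 CPM over all 288. The median depth of the 16 (2167 UMIs) was like that of all members (2224). They came from 6 libraries: 6 of them from PS19 replicate 2, 3 from CLEAR replicate 1, 2 each from WT replicate 3, CLEAR replicate 2 and CLEAR_PS19 replicate 3, and 1 from CLEAR replicate 3. Lyve1 was detected in 39 nuclei and Cd209f, a C-type lectin, in 77, and 22 carried both. Nuclei with Lyve1 were deeper (median 2972 UMIs), and the part of depth in these shares was not tested.

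Few of the genes that mark these nuclei were confined to them. Macrophages held 0.0738% of all UMIs of the series and microglia-like nuclei 1.94%. They held 74.0% of the Mrc1 UMIs, 75.4% of Cd209f, 75.0% of Ms4a4a and 70.9% of Cbr2. They held 44.2% of Cd163, 30.4% of Dab2, 28.0% of F13a1 and 23.0% of Stab1, of which microglia-like nuclei held 37.5%. That last share was limited in advance, since a microglia-like nucleus could hold at most 1 UMI of the 4 markers. Over the 24 genes the median was 28.2%, with 6 genes above 50% and 9 under 10%. Sdc4 (0.622%), Gas6 (0.846%), Maf (2.14%) and Colec12 (5.08%) were mostly RNA of other nuclei.

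No difference in the share of macrophages between genotypes passed its test. They made up 0.0631%, 0.146% and 0.233% of barcodes with 500 or more genes in the WT libraries, in order of replicate number. The PS19 libraries held 0.261%, 0.713% and 0.223%. The CLEAR libraries held 0.217%, 0.247%, 0.244% and 0.110%, and the CLEAR_PS19 libraries 0.0836%, 0.0498%, 0.268% and 0.104%. Group means were 0.147% ± 0.0850 (SD, n = 3) in WT, 0.399% ± 0.273 (n = 3) in PS19, 0.205% ± 0.0644 (n = 4) in CLEAR and 0.126% ± 0.0969 (n = 4) in CLEAR_PS19. The groups overlapped except for PS19 replicate 2, whose exact binomial 95% interval (0.559% to 0.897%, counting error only) lay above all other libraries. The mean difference with 1 genotype averages its differences on both backgrounds of the other. For tau, PS19 minus WT was positive and CLEAR_PS19 minus CLEAR negative. For CLEAR, CLEAR minus WT was positive and CLEAR_PS19 minus PS19 negative. The mean difference with tau was 0.0867 percentage points (exact two-sided permutation test of 1400 relabellings, p = 0.517, adjusted over 4 share tests 0.617). It was 0.00808 without PS19 replicate 2. With the CLEAR mutation it was -0.108 points (1225 relabellings, exact permutation p = 0.263, adjusted 0.526), and -0.0292 without that library.

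Counted against microglia, the ratio was lowest in the CLEAR_PS19 group. Per 100 microglia-like nuclei WT libraries had 1.73, 3.93 and 5.24 macrophages and PS19 libraries 2.67, 5.05 and 2.72. CLEAR libraries had 4.59, 5.15, 6.43 and 2.04, and CLEAR_PS19 libraries 1.28, 0.974, 2.76 and 1.65. The ranges of CLEAR and CLEAR_PS19 overlapped through CLEAR replicate 4 and CLEAR_PS19 replicate 3. The mean difference with the tau transgene was -1.52 per 100 (exact permutation p = 0.104, adjusted 0.417), and with the CLEAR mutation -0.446 (exact permutation p = 0.617, adjusted 0.617). Leaving out 1 library, the CLEAR value ran from -0.921 (without WT replicate 1) to -0.0277 (without CLEAR replicate 4). It was -0.0243 with the replicate block and 0.188 without the 4 female libraries, so no direction is read from it. Microglia-like nuclei themselves numbered 280 to 405 for WT and 734 to 1427 for PS19. They numbered 311 to 538 per CLEAR library and 607 to 857 per CLEAR_PS19 library, so the denominator of the ratio differed between groups with and without tau. Between same-numbered libraries the ratio was lower with tau in all 4 pairs of CLEAR and CLEAR_PS19 and in 1 of 3 pairs of WT and PS19, the third. With replicate number as a block the exact permutation p was 0.109 (adjusted 0.4375).

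**Figure D2:**
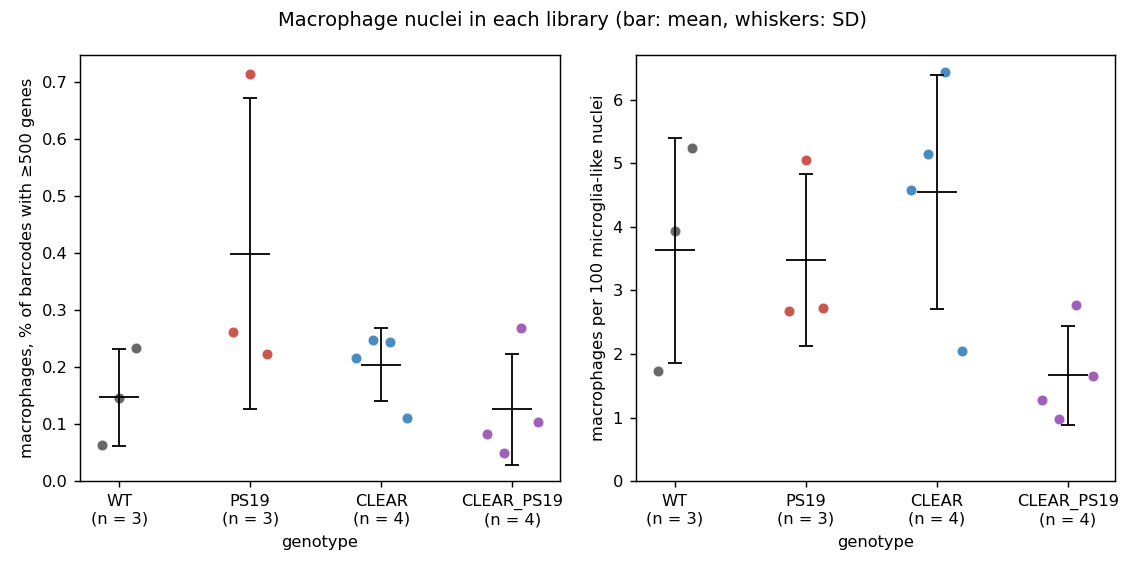
Macrophage nuclei as a percent of barcodes with 500 or more genes (left) and per 100 microglia-like nuclei (right) in each genotype, 1 point per library, with the mean and SD. PS19 replicate 2 lies apart at 0.713% on the left, and the 4 CLEAR_PS19 libraries lie between 0.974 and 2.76 on the right.

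Of the marker genes, Mrc1 had a mean of 2529 ± 341 CPM for WT (n = 2) and 3500 ± 54.6 for PS19 (n = 3). Its mean was 3111 ± 305 for CLEAR (n = 4) and 2949 ± 767 for CLEAR_PS19 (n = 3). F13a1 was at 3204 ± 347, 3964 ± 640, 4059 ± 522 and 4347 ± 640 CPM, in the same order. These levels passed through the rule, so no test between genotypes is given. Atp6v1h, which as far as the design is known holds the CLEAR mutation (chr1:5070018-5162529, plus strand), was too low in the macrophages to be tested, with 95.8 ± 58.6 CPM for WT, 124 ± 17.4 for PS19, 104 ± 37.1 for CLEAR and 103 ± 26.5 for CLEAR_PS19. In microglia of the same libraries its difference with the CLEAR mutation was -0.41 ± 0.13 on the log2 scale (edgeR, adjusted p = 0.642). Mapt, the mouse gene of tau, differed by 0.27 ± 0.41 with the transgene in macrophages (edgeR, adjusted p = 0.977). The counts do not name the human transgene.

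Within the macrophages, few genes passed the test for genotype. UMIs were summed per library and tested with edgeR's quasi-likelihood test with group and sex in the model, and differences are log2 fold changes ± SE. The tau difference is the mean of PS19 minus WT and CLEAR_PS19 minus CLEAR. The CLEAR difference is the mean of CLEAR minus WT and CLEAR_PS19 minus PS19. With the tau transgene 3 of 1701 genes passed, all lower (0.176% of genes tested), while 97 had an unadjusted p under 0.05. Among them were Lsamp, a neuronal adhesion gene (-2.19 ± 0.36, adjusted p = 0.00666), and Slc1a2, the glutamate transporter of astrocytes (-3.12 ± 0.62, adjusted p = 0.0444). Slc1a2 was highest in WT replicates 2 and 3, at 896 and 412 CPM, and stood at 0 to 59.1 CPM in the other 10 libraries. Its value was -3.44 to -2.93 leaving out any 1 library, and its call was lost in 11 of these 12 fits (edgeR adjusted p 0.0567 to 0.376) and with the replicate block (0.208). Lsamp was at -0.24 without the mixed nuclei (edgeR adjusted p = 0.956). The summed level of the other 4 astrocyte markers was 570.3 and 625.2 CPM in WT replicates 2 and 3. It was 19.7 to 252 CPM for CLEAR and 19.4 to 591 CPM with tau, so libraries with and without tau overlapped. Slc1a3, among these 4, stood at 638 CPM in the summed microglia without tau and 623 with tau. It gave all UMIs of the set in CLEAR_PS19 replicate 4, the highest tau library. Aqp4, Gja1 and Gfap had 0, 4 and 0 UMIs in WT replicate 2 and 6, 5 and 15 in WT replicate 3. Oligodendrocyte precursor markers reached 1052 CPM without tau and 158 with tau. The part of glial RNA in the result was not tested. Without the 28 mixed nuclei 1 gene passed, and without WT replicate 2 the count was 7. The next genes by p, Wdr17, Kcnd2, Fgf14, Csmd1, Gm42418, Opcml and Adgrb3, did not pass. With the CLEAR mutation 0 genes passed (0%) with edgeR and 0 with DESeq2, while 79 had an unadjusted p under 0.05. Ntm, Erbb4 and Gmds were among the genes with the smallest p and did not pass, and the count was 3 without WT replicate 3. The change of the tau difference with the CLEAR mutation passed for 1 gene, Lsamp (0.0588%; 4.13 ± 0.72, adjusted p = 0.0255), and was -0.15 without the mixed nuclei. The call was also lost in 6 of 12 fits that left out 1 library (edgeR adjusted p 0.0520 to 0.140).

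No member of the 11 gene lists passed in the macrophages for the tau transgene, the CLEAR mutation or their interaction. Of 12 border macrophage genes tested, the median tau difference was -0.23, beside -0.02 over all genes. The median was -0.48 over 9 disease-associated microglia genes, -0.15 over 17 lysosomal genes and 0.11 over 4 V-ATPase genes. Over 5 interferon response genes it was 0.84, with all 5 positive and the smallest adjusted p at 0.809. The monocyte-attracting chemokine Ccl12 had the largest difference of a listed gene, 1.90 ± 0.60 with tau (adjusted p = 0.417) and 2.03 ± 0.60 with the CLEAR mutation (adjusted p = 0.522). It stood at 0 and 15.2 CPM in WT replicates 2 and 3, and at 19.4 to 369 CPM in the other 10 libraries.

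The tau difference of the macrophages was then set against that of microglia in the same libraries, in a single edgeR fit with library as a block. This is the test of whether the classes differ, and it passed for 147 of 11595 genes (1.27%). The filter on low counts took both classes together, so a gene could enter through its microglia sums. Of the 147 genes, 77 passed the filter in the fit of macrophages alone, and 3 passed the test there. For the others the macrophage counts were too low for a test of their own. Among the 147 the value was lower in macrophages for 111 (0.957%) and higher for 36 (0.31%). Among the 147 were Stab1, a gene of the rule, and P2ry12, a gene that chose the microglia-like nuclei; nothing is read from these 2. Of the 111 lower genes, 50 passed as higher with tau in microglia alone, 6 passed as lower and 55 did not pass there. For 44 of these 55, most of the macrophage UMIs without tau came from WT replicates 2 and 3, which held 35.0% of all such UMIs, and 4 of the 55 passed without the mixed nuclei. Of the 50, 6 had most of these UMIs in that pair and 31 passed without the mixed nuclei. In the microglia alone 898 of 11493 genes passed (7.81%; 4.66% higher and 3.16% lower), among them 20 of 26 genes of disease-associated microglia and 14 of 15 interferon genes, all of these higher with tau. The comparisons share their microglia sums, so each class's own values are given side by side below.

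Apoe was the gene of lipid transport among them (chr7:19696109-19699188, minus strand). In microglia it was at 202 and 288 CPM in WT replicates 2 and 3, and at 1453, 2407 and 737 in PS19. The CLEAR libraries held 377, 324, 221 and 317, and CLEAR_PS19 replicates 1, 3 and 4 held 558, 1068 and 246. These are the libraries tested. Their macrophages held 1086 and 3477 CPM for WT and 3090, 2712 and 2304 for PS19, 12969, 4234, 3272 and 1625 for CLEAR, then 2143, 1907 and 985 for CLEAR_PS19. The tau and no-tau libraries overlapped in macrophages, while in microglia only CLEAR_PS19 replicate 4 fell among the libraries without tau. The tau difference was 1.64 ± 0.31 in microglia (adjusted p = 0.00580) and -0.93 ± 0.39 in macrophages (adjusted p = 0.641), and the difference between the classes was -2.17 ± 0.24 (edgeR, adjusted p = 7.43e-16).

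Igf1, a growth factor (chr10:87858265-87937042, plus strand), lay higher in the macrophages. In the same order of libraries, their values were 272 and 351 CPM (WT), 237, 251 and 445 (PS19), 357, 177, 399 and 203 (CLEAR), then 320, 299 and 0 (CLEAR_PS19). Microglia held 2.87 and 1.33 CPM (WT), 142, 155 and 26.5 (PS19), 7.59, 0, 1.36 and 0 (CLEAR), then 9.70, 104 and 1.24 (CLEAR_PS19). Microglia with the highest value, in PS19 replicate 2, thus lay below every macrophage sum but that of CLEAR_PS19 replicate 4. The tau difference was 4.74 ± 0.80 in microglia (adjusted p = 0.00291) and -0.21 ± 0.35 in macrophages (adjusted p = 0.987), and the difference between the classes was -4.68 ± 0.52 (edgeR, adjusted p = 2.02e-15).

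Bank1, a signaling adaptor (chr3:136053363-136326066, minus strand), showed the opposite case. Macrophages held 1005 and 1189 CPM (WT), 1155, 997 and 581 (PS19), 842, 1123, 1301 and 1016 (CLEAR), then 985, 1324 and 525 (CLEAR_PS19). Microglia held 436 and 359 CPM (WT), 16.5, 10.3 and 90.6 (PS19), 247, 235, 345 and 356 (CLEAR), then 120, 34.9 and 204 (CLEAR_PS19). In microglia every tau library lay below every library without tau, while the macrophage ranges overlapped. The tau difference was -2.66 ± 0.38 in microglia (adjusted p = 0.00128) and -0.35 ± 0.23 in macrophages (adjusted p = 0.858). The difference between the classes was 2.57 ± 0.28 (edgeR, adjusted p = 2.08e-16). With DESeq2 the adjusted p was 0.149.

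Across 20 alternatives and the reported fit, 12 genes passed every time, a criterion set after the values were seen. All 12 were lower in the contrast. Their tau differences in microglia alone were all positive. They were Apoe, Igf1, Lyz2, Cd74, Lilrb4a, an inhibitory immune receptor, Cybb, the catalytic subunit of the phagocyte oxidase, Itga4, an integrin, the interferon-inducible Ifi207, Myo5a, Bcar3, Anapc15 and Gm13391. Lilrb4a was at 107 to 643 CPM in macrophages without tau and 268 to 722 with tau, and at 8.14 to 44.3 and 61.0 to 360 CPM in microglia. The classes differed by -3.14 ± 0.38 (edgeR, adjusted p = 3.41e-13). Ifi207 differed by -3.61 ± 0.52 (edgeR, adjusted p = 5.03e-09), and its own values were 4.54 ± 0.62 in microglia and 0.74 ± 0.35 in macrophages (adjusted p = 0.843). Ifi207 and Lilrb4a have near-identical relatives, so their counts are uncertain.

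**Figure D3:**
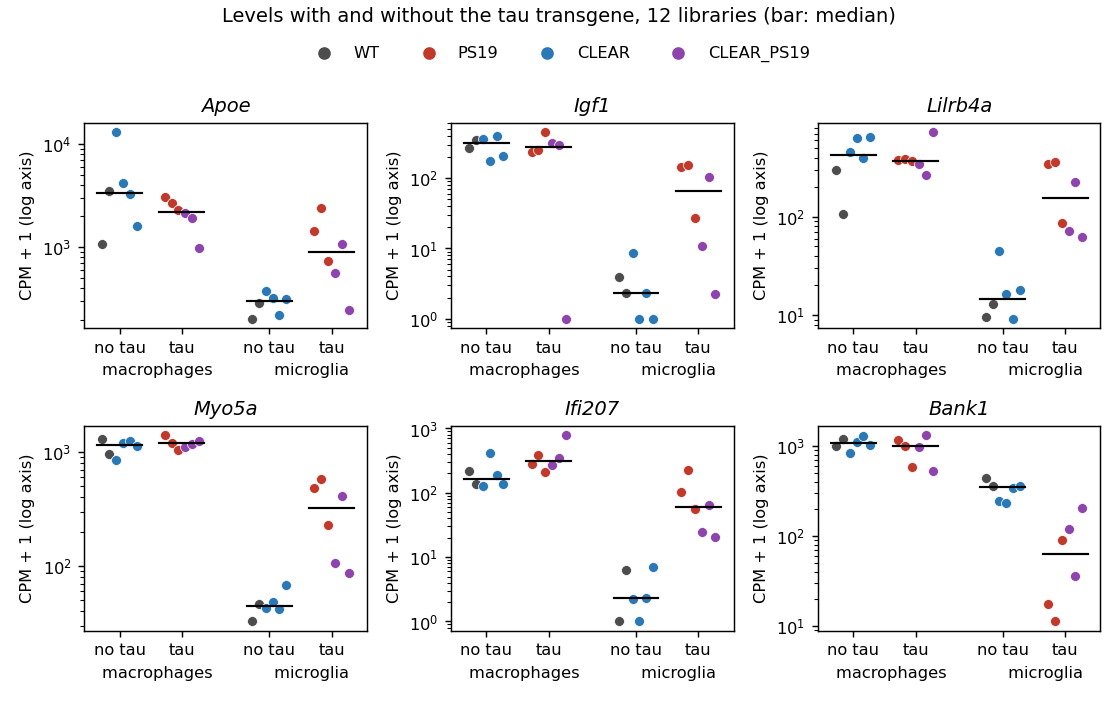
Level of 6 genes in summed macrophage nuclei and summed microglia-like nuclei of 12 libraries, without and with the tau transgene, on log axes of CPM + 1, coloured by genotype, with bars at the median. For Lilrb4a, Myo5a and Ifi207 the microglia of tau libraries lie higher and the macrophages overlap; for Igf1 this holds but for CLEAR_PS19 replicate 4 (1.24 CPM), which lies among the microglia without tau; for Bank1 the microglia of tau libraries lie lower.

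By list, 6 of 26 disease-associated microglia genes passed the test between the classes (Apoe, Lyz2, Cd63, Axl, Ctsb and Apobec1). All 6 had a lower tau difference in macrophages than in microglia. Lower and higher have this sense for the lists below and do not refer to levels. The list median was -1.02 beside 0.02 over all genes, of which 1.27% passed (0.957% lower and 0.31% higher). Of 15 interferon genes 4 were lower (Ifi207, Ifi213, Ifi204 and Oas1a). Of 15 homeostatic genes 2 were higher (Selplg and P2ry12) and the median was 0.63. The list includes 4 genes that chose the microglia-like nuclei, P2ry12 among them, so nothing is read from P2ry12 or from this median. Of 9 MHC class II genes 2 were lower (Cd74 and H2-Aa), and of 20 border macrophage genes Colec12, Ms4a7 and Folr2 were lower and Hpgd higher. No V-ATPase gene of 18 passed with edgeR, and 1 had an unadjusted p under 0.05. In macrophages alone 9, 5, 8, 3, 12 and 4 genes of these lists passed the filter on low counts, in the order given here. The counts and medians thus include genes with few macrophage UMIs. Without and with tau, the macrophages held 12 and 16 UMIs of Oas1a, 20 and 19 of H2-Aa and 19 and 14 of Folr2.

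The count of 147 differed between alternatives. Without the mixed nuclei 53 genes passed, 47 of them among the 147, and DESeq2 called 33. Neuronal and glial genes were among those that no longer passed without the mixed nuclei, such as Gpc5 (-5.53 to 6.18) and Dscam (-5.01 to 0.04). The count was 59 without WT replicate 3, 84 without PS19 replicate 2 and 90 without CLEAR_PS19 replicate 3. Without the 4 female libraries, an alternative chosen after seeing the data that leaves WT with 1 library, it was 59.

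The bulk libraries, which the rule did not use, were read for the same genes. In bulk tissue, fewer cells of a type and less RNA per cell cannot be told apart. Of the 24 macrophage genes 20 passed the filter on low counts. At 9 months 7 of these 20 were higher in PS19 and 0 lower, in a comparison where 12.8% of all 16133 genes passed (7.68% higher and 5.09% lower). The 7 were Mrc1, Siglec1, Colec12, Maf, Ms4a6c, Sdc4 and Fcna. All 20 values were positive, with a median of 0.73 beside -0.01 over all genes, and 15 had an unadjusted p under 0.05. The 20 genes were measured in the same libraries, so their values are not separate results. WT replicates 4 and 5 were the lowest WT libraries for Mrc1, F13a1, Cd163, Stab1, Colec12, Siglec1 and Sdc4, but not for Fcna or Ms4a6c. Microglial genes were also higher in PS19 at this age: P2ry12 by 0.47 ± 0.08 (edgeR, adjusted p = 0.000379), Ctss by 1.92 ± 0.13 (7.85e-10), Cd74 by 4.14 ± 0.34 (1.14e-08), Itgax by 5.74 ± 0.42 (2.07e-09) and Cst7, which had no UMI in the macrophage nuclei, by 6.05 ± 0.34 (3.56e-11). Their part in the macrophage gene result was not tested. Ttr, the transthyretin gene and a marker of choroid plexus, ranged from 25.1 to 5804 CPM in WT and from 27.2 to 5316 in PS19 at 4 months, and from 608 to 4627 in WT and from 4128 to 5323 in PS19 at 9 months (0.42 ± 1.06 at 9 months, edgeR adjusted p = 0.854). Ttr thus varied most at 4 months, where the lowest values were those of WT replicate 3 and PS19 replicates 1 and 5, and the part of choroid plexus in the bulk results was not tested.

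Mrc1 was at 6.63, 7.58, 6.44, 3.01 and 2.61 CPM in WT at 9 months, and at 7.82, 12.97, 8.43 and 11.8 CPM in PS19. Every PS19 library lay above every WT library, and WT replicates 4 and 5 were the low ones. The log2 difference was 0.97 ± 0.29 (edgeR, adjusted p = 0.0286), and the adjusted p was 0.0732 without WT replicate 4 or 5, 0.0948 without PS19 replicate 3 and 0.0947 without PS19 replicate 5. Fcna (1.07 ± 0.35, edgeR adjusted p = 0.0477) lost its call in 12 of 21 fits that left out 1 library (adjusted p 0.0522 to 0.133), with DESeq2 (0.0809), with no filter on low counts (0.0950) and with the replicate block (0.0642). F13a1 was at 4.83, 4.50, 3.85, 2.03 and 1.08 CPM in WT and at 2.91, 9.63, 6.37 and 5.70 CPM in PS19. These ranges overlapped, and the difference was 0.92 ± 0.33 (edgeR, adjusted p = 0.0674). Cd163 was at 3.96, 4.91, 2.71, 0.895 and 1.21 CPM in WT and at 3.16, 4.19, 2.58 and 3.72 in PS19, again with overlap (0.33 ± 0.38, edgeR adjusted p = 0.643). Stab1 was at 23.8, 25.7, 23.1, 16.8 and 18.2 CPM in WT and at 26.0, 31.8, 19.5 and 30.8 in PS19 (0.33 ± 0.16, edgeR adjusted p = 0.196).

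Siglec1, a sialic acid lectin of macrophages, was at 0.721, 0.833, 0.903, 0.569 and 0.382 CPM in WT and at 1.75, 2.87, 1.29 and 5.17 CPM in PS19, with no overlap (2.02 ± 0.47, edgeR adjusted p = 0.00565). Without PS19 replicate 5, its highest library, the adjusted p was 0.0583. Ms4a6c was at 0.360, 0.417, 0.120, 0.163 and 0.318 CPM in WT and at 1.33, 1.32, 0.688 and 1.44 in PS19 (2.11 ± 0.46, edgeR adjusted p = 0.00334). Colec12 was at 26.2, 28.8, 20.7, 12.8 and 9.10 CPM in WT and at 30.0, 42.7, 38.3 and 39.4 in PS19 (0.95 ± 0.25, edgeR adjusted p = 0.0129). For these genes too the groups did not overlap. In the nuclei, macrophages held 29.0% of Siglec1 UMIs, 13.01% of Ms4a6c and 5.08% of Colec12, and microglia-like nuclei 26.5%, 40.8% and 14.1%. The part of microglia and other cells in the bulk differences was not tested. Among the genes with over 50% of their UMIs in macrophages, Mrc1 alone passed. Cbr2 (1.00 ± 0.39, edgeR adjusted p = 0.0991), Clec10a (0.99 ± 0.44, edgeR adjusted p = 0.153) and Cd209f (0.68 ± 0.48, edgeR adjusted p = 0.407) did not, and Pf4 and Ms4a4a were below the filter.

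At 4 months none of the 20 genes passed with edgeR or DESeq2 (0.0186% of all genes passed with edgeR), 4 had an unadjusted p under 0.05, and the median was -0.15. Mrc1 ranged from 3.21 to 7.72 CPM (median 6.89) in 6 WT libraries and from 2.12 to 5.04 (median 3.93) in 6 PS19 libraries, a difference of -0.75 ± 0.26. F13a1 ranged from 1.96 to 3.88 (median 3.11) and from 1.14 to 2.61 (median 1.72), a difference of -0.73 ± 0.31. Ms4a7 and Ms4a6c were the other pair with an unadjusted p under 0.05, at -1.31 ± 0.52 and -2.23 ± 0.54. The ranges of both Mrc1 and F13a1 overlapped, with most PS19 libraries in the lower part.

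The change of the PS19 difference between 4 and 9 months passed for 8 of the 20 genes, all higher at 9 months, beside 5.41% of all genes (4.37% higher and 1.04% lower). It was 1.72 ± 0.39 for Mrc1 (edgeR, adjusted p = 0.00958), 1.66 ± 0.45 for F13a1 (edgeR, adjusted p = 0.0323) and 4.34 ± 0.71 for Ms4a6c (edgeR, adjusted p = 0.000410). Siglec1, Colec12, Ms4a7, Maf and Sdc4 also passed, and all 20 values were positive (median 0.99). Of 21 fits that each left out 1 library, 15 ended the call for Ms4a7 (edgeR adjusted p up to 0.0886), 10 for F13a1 (up to 0.0969), 6 for Colec12 (up to 0.0685), 2 for Siglec1 (up to 0.0927) and 1 for Maf (0.0639). None ended it for Mrc1 or Sdc4. Ms4a6c passed in the 20 fits that tested it, and without WT replicate 5 of 4 months it fell below the filter on low counts, so it was not tested there at either age. The count was 3 without PS19 replicate 5 of 9 months, 4 without WT replicate 5 of 4 months, and 5 without WT replicate 4 or PS19 replicate 3 of 9 months or PS19 replicate 1 of 4 months. The count at 9 months was 4 without PS19 replicate 5.

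**Figure D4:**
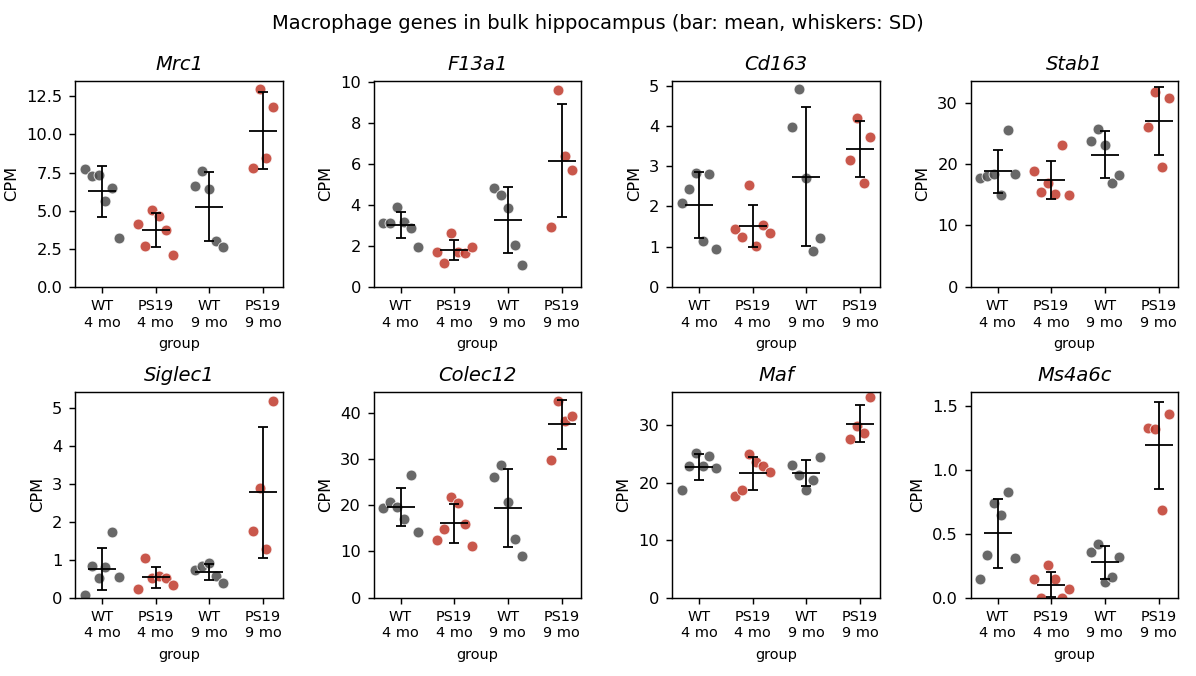
Level of the 4 marker genes and 4 further macrophage genes in bulk hippocampus, in CPM, by genotype and age, 1 point per library (n = 6, 6, 5 and 4), with the mean and SD. At 9 months the PS19 libraries lie above all WT libraries for Mrc1, Siglec1, Colec12, Maf and Ms4a6c, and overlap with them for F13a1, Cd163 and Stab1.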

How the data were processed

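The authors deposited unnormalized counts: UMIs of each gene in each barcode for the nuclei (Cell Ranger 5.0.1, per the file headers), and reads of each gene in each library for the bulk data. The submitters' processing notes name cutadapt, STAR, featureCounts and DESeq2 for the bulk data, Cell Ranger and Seurat for the nuclei, and mm10 for both. A header in 1 of 21 bulk tables gives featureCounts 2.0.0 on exons without strand, so overlapping genes are uncertain. Bulk totals were 9.63 to 17.2 in units of 1000000 counts. Microglia-like nuclei had 500 or more genes, 5 or more UMIs from 3 or more of 7 microglia genes that included Inpp5d, Csf1r, Apbb1ip, Cx3cr1, P2ry12 and Siglech, 0.2% or more of their UMIs from these, at most 1 macrophage marker UMI and at most 3 of Snap25 and Rbfox3. UMIs were summed per library and class, scaled to CPM by the class total, and tested with edgeR 4.0.16 (R 4.3.3; TMM, filterByExpr, quasi-likelihood test, two-sided). Calls were Benjamini-Hochberg adjusted p under 0.05 over all genes tested. All 4 genotypes, and all 21 bulk libraries, entered 1 fit each. DESeq2 1.42.0 was an alternative, and the tests were tested on simulated data. For shares, the labels of 1 genotype were permuted exactly among libraries alike in the other.

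Same-numbered nuclei libraries deviated together from their group means between WT and PS19 (r 0.337 to 0.438) and between CLEAR and CLEAR_PS19 (r 0.454 to 0.617). Libraries of different number were not compared in this way, so a pairing by replicate number is not established. The reported tests do not use it, and a replicate block was run as an alternative. Genes named are the 25 highest and 10 lowest ratios to microglia, up to 15 called genes per direction and test (or the 10 smallest p), list members, the bulk macrophage genes and the genotype genes. Coordinates are those of GENCODE M21, promoters those of RefSeq. Bulk replicate 2 of PS19 at 9 months is not used here, and some genes are not reported here. The members and lists were chosen with earlier results of these data known.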

Additional observations from a re-analysis of the deposited data

Results flagged for a closer look

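Chance flags about 1 in 20 groups if their values are normally distributed, and the groups here share libraries between genes. Of 117 groups of 4 to 6 libraries, 13 held a library far from the rest. In bulk these were Cd163 (2.52 CPM) and Cd209f (1.09) in PS19 at 4 months, Stab1 (25.6) in WT at 4 months, Gas6 (82.3) and Ms4a7 (1.08) in WT at 9 months, and Lyve1 (3.57), Clec10a (0.608), Ms4a7 (0.344) and Ms4a6c (0.688) in PS19 at 9 months. In macrophages of the CLEAR group they were Mrc1 (2659 CPM), Tmeff2 (914), Pak7 (474) and Kcnd2 (643). Mrc1 is a gene of the rule that chose these nuclei, so nothing is read from its flag.

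The sign of the values below compares the tau differences of the classes and not their levels. The tau difference of macrophages minus that of microglia passed edgeR's test with negative log2 values for these genes: Apoe (-2.17), Igf1 (-4.68), Myo5a (-2.35), Lilrb4a (-3.14), Lyz2 (-3.48), Xylt1 (-4.70), Colec12 (-2.35), Gpc5 (-5.53), Ifi207 (-3.61), Ms4a7 (-3.56), Wdr17 (-5.28), Dscam (-5.01), Kcnd2 (-3.63) and Nxph1 (-10.25). The macrophages of the tau libraries held 1 UMI of Nxph1, 2 of Gpc5 and 2 of Wdr17, so the size of those values depends on the prior count. Xylt1, Gpc5, Wdr17, Dscam, Kcnd2 and Nxph1 did not pass without the mixed nuclei (adjusted p 0.706 to 1), and WT replicates 2 and 3 held 64.6% (Kcnd2) to 100% (Gpc5) of their macrophage UMIs without tau. The test passed with positive values for these genes: Bank1 (2.57), Gm31243 (2.51), Csmd3 (1.36), Nav3 (1.64), Clmp (2.92), Tmeff2 (1.30), Ggt5 (2.45), Numb (1.34), Pde7b (1.54), Mtss1 (1.19), Man1a (1.21), Hpgd (1.33), Pak7 (1.68), Tanc2 (0.90) and Eda (2.45).

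In bulk, the PS19 difference at 9 months minus that at 4 months passed for Mrc1 (1.72), Siglec1 (2.61), Sdc4 (0.62), Maf (0.56), F13a1 (1.66), Colec12 (1.24), Ms4a7 (2.62) and Ms4a6c (4.34). In macrophages, the tau difference with minus without the CLEAR mutation passed for Lsamp (4.13).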

How the results depend on the processing

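The 4 share results stayed above the threshold of 0.05 after adjustment under every alternative run. Values were 0.00808 to 0.140 percentage points for the tau share, -0.184 to -0.0292 for the CLEAR share, -2.20 to -1.09 for tau per 100 microglia and -0.921 to 0.188 for CLEAR, where the sign turned without the 4 female libraries alone. The lowest adjusted p was 0.0971, for tau per 100 microglia without WT replicate 1.

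Genes called for tau in macrophages numbered 3, and 1 without mixed nuclei, 12 with no filter on low counts, 1 without the 4 similar libraries and 2 to 7 leaving out 1 library in turn. For the CLEAR mutation the 0 became 1 with 1000 or more genes per nucleus, 14 with no filter, and 0 to 3 leaving out 1 library. For the interaction the 1 became 0 with 1000 or more genes, 5 with DESeq2, 3 with no filter, 0 without the 4 similar libraries and 0 to 3 leaving out 1 library. Of 2 alternatives chosen after seeing the data, the 4 similar libraries as a covariate gave 2, 0 and 1, and leaving out the 4 female libraries, which leaves 1 WT library that is assumed to vary like the others, gave 2, 3 and 1. The class contrast gave 53 genes without mixed nuclei, 33 with DESeq2, 59 without the 4 female libraries and 59 to 142 leaving out 1 library. In bulk the counts leaving out 1 library were 4 to 8 at 9 months, 0 at 4 months and 3 to 9 for the change.

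The replicate block cannot be told apart from sex and the library sets. With it 2 genes passed for tau, 2 for CLEAR and 1 for the interaction. The shares gave permutation p = 0.5625 (tau) and 0.6875 (CLEAR), and 0.109 and 0.969 per 100 microglia. Bulk numbers did not pair (r -0.294 to 0.318); their block gave 7, 0 and 10 genes.

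Without mixed nuclei the sign turned for Npas3 (2.60) and Mdga2 (2.71) with CLEAR, Nlgn1 (-2.82), Gabrb1 (-2.04) and Lsamp (-0.15) in the interaction, and Gpc5 (6.18) and Dscam (0.0369) in the class contrast; the cause was not tested. Libraries tested held 10 to 72 macrophage nuclei each.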
